A study of Mus musculus with 3 samples.

Results

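Cadherins are calcium-dependent adhesion molecules of the cell surface, and the genes described here are the cadherins and the nonclustered protocadherins of the mouse. They were chosen by symbol, as the letters Cdh or Pcdh followed by a number, with or without an x after the number of a Pcdh gene. This gave 35 of the 32531 genes in the files, 23 cadherins and 12 nonclustered protocadherins. Ribosomes tagged with EGFP were pulled down from the deep nuclei of the cerebellum, its output nuclei, and their RNA was sequenced (translating ribosome affinity purification, TRAP). The 3 libraries form 1 group. They come from adult mice of the line Htr6-TRAP NIDA113 on the strain C57BL/6J, and all carry the ribosomal protein gene Rpl10a fused to EGFP in a transgene named for the serotonin receptor gene Htr6. Their numeric age is not given in the sources used here, nor whether each library is 1 animal or a pool, so the spread between libraries may be partly technical. Unpurified RNA of the tissue was not analysed here, so no level is an enrichment over the tissue.

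Classical cadherins bind the same or a related cadherin on the facing cell with the outermost of their extracellular domains, and their tails hold beta-catenin and p120-catenin, which lead on to actin. They fall into type I, such as N-cadherin, and type II, which many groups of neurons use in different combinations. Nonclustered protocadherins of the delta class bind more weakly and carry other tails. Those of the delta-1 group can bind protein phosphatase 1, and those of the delta-2 group can recruit the WAVE complex, a regulator of actin branching. In the cerebellum, cadherins of both classes are known from patches of Purkinje cells and from the deep nuclei to which these project.

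The type of each classical cadherin can be read from its coding sequence. A propeptide is cut off after a pair of basic residues, and a tryptophan near the new start of the protein docks into the partner molecule. The first 12 codons after such a pair were read from the GENCODE M21 transcripts (build mm10), and are shown for 3 type I genes and then for 6 type II genes, with tryptophan codons in capitals. The type II genes shown are the 4 of highest mean RPKM and the 2 whose CPM differed most between libraries.
Cdh4, chr2:179797560-179797595, plus strand: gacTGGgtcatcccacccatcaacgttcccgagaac
Cdh1, chr8:106653582-106653617, plus strand: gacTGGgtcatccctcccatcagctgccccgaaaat
Cdh15, chr8:122856592-122856627, plus strand: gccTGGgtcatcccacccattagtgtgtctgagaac
Cdh18, chr15:23173861-23173896, plus strand: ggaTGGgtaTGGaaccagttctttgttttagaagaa
Cdh8, chr8:99400759-99400794, minus strand: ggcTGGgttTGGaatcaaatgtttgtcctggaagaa
Cdh20, chr1:104934274-104934309, plus strand: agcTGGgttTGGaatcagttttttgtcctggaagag
Cdh12, chr15:21237843-21237878, plus strand: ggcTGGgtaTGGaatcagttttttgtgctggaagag
Cdh22, chr2:165180937-165180972, minus strand: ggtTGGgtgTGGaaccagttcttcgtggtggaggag
Cdh19, chr1:110954596-110954631, minus strand: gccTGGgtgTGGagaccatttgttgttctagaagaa
All 18 classical genes held the pair of basic codons followed by a tryptophan codon at position 2. In the 5 type I genes this was the only tryptophan codon of the 12, and in the 13 type II genes a second one stood at position 4. Of the 17 other members, Cdh26 alone had such a start, with 1 tryptophan codon. A pair of basic codons with tryptophan codons at both positions, in the first part of the coding sequence, was found in 0.208% of 19733 protein-coding genes. The share of genes with a tryptophan codon at position 2, whatever stood at position 4, was not counted, so 0.208% does not cover the type I start.

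A second stretch separates the delta-1 protocadherins from the rest. The codons for arginine, arginine, valine, threonine and phenylalanine, the form in which protein phosphatase 1 is bound, lie in the tail region of all 4 delta-1 genes and in none of the other 31 members. They are in capitals below for Pcdh9, Pcdh7 and Pcdh11x, with 1 codon on either side, and that of Pcdh1 is not printed. Such a stretch is held by 0.0507% of the 19733 protein-coding genes.
Pcdh9, chr14:93326857-93326877, minus strand: cagCGCCGTGTTACCTTTcac
Pcdh7, chr5:57913159-57913179, plus strand: tttCGTAGAGTGACGTTTtct
Pcdh11x, chrX:120726504-120726524, plus strand: cagAGACGTGTCACATTTcac
A match is a description of the sequence and not a measured binding site.

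Libraries held 7622010 to 8842058 gene counts, and 13095 to 13951 genes had a count. Of reads assigned to a gene, to no feature or as ambiguous, 50.2%, 44.1% and 44.7% had no feature in replicates 1, 2 and 3. A count of 0 allows up to 0.397, 0.340 and 0.385 CPM in replicates 1, 2 and 3, taking 3 counts as the limit and covering counting error only. CPM is the count scaled by the TMM library size, and RPKM is CPM per kilobase of annotated exon, so levels are compared between genes as RPKM and between libraries as either. The labels name neurons of the deep nuclei. All 6 markers of their glutamatergic neurons were detected in every library, with a summed level of 478 to 735 CPM, and all 6 pan-neuronal genes, with 25238 to 31220 CPM. Markers of other cells were there too, 7 of 7 for granule cells (3158 to 3688 CPM), 7 of 7 for Purkinje cells (5704 to 7625 CPM), 6 of 6 for oligodendrocytes (2890 to 3662 CPM) and 7 of 7 for astrocytes (1690 to 2267 CPM). Of the Purkinje list, Itpr1 (3148 to 3934 CPM), Rgs8 (1418 to 2312) and Car8 (918 to 1409) were highest. Pcp2 (13.9 to 39.1 CPM) and Skor2 (4.31 to 13.1) were lowest. Such sums depend on the genes listed and do not give the share of a cell type. All 6 genes listed for inhibitory interneurons (Gad1, Gad2, Slc32a1, Slc6a5, Pvalb and Kit) were detected as well. Their sum was 966, 646 and 1133 CPM in replicates 1, 2 and 3. That list does not tell interneurons from other inhibitory neurons, such as Purkinje cells or those of the deep nuclei. Endothelial and mural markers, 5 of 7 detected, summed to 51.0 to 104 CPM, with Cldn5 at 0. Which cells the counts of a cadherin came from was not tested. In such bulk RNA, fewer cells of a type and less RNA per cell cannot be told apart.

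Most members were present in the purified RNA. Of the 35, 27 had at least 3 counts in every library, against 47.4% of protein-coding genes and 31.5% of all genes in the files. A mean of 10 CPM was reached by 21 members, against 38.4% of protein-coding genes and 25.1% of all genes, and one of 100 CPM by 4 members (Pcdh9, Cdh2, Pcdh7 and Pcdh17), against 10% of protein-coding genes. The median level of the members was 1.86, 2.44 and 2.65 RPKM in replicates 1, 2 and 3, while that of all protein-coding genes was 0.298, 0.392 and 0.453 RPKM. Cdh3, Cdh17, Cdh26 and Pcdh12 had no count in any library. Their best known sites are the placenta (Cdh3), the intestine (Cdh17), other epithelia (Cdh26) and endothelium (Pcdh12).

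**Figure D1:**
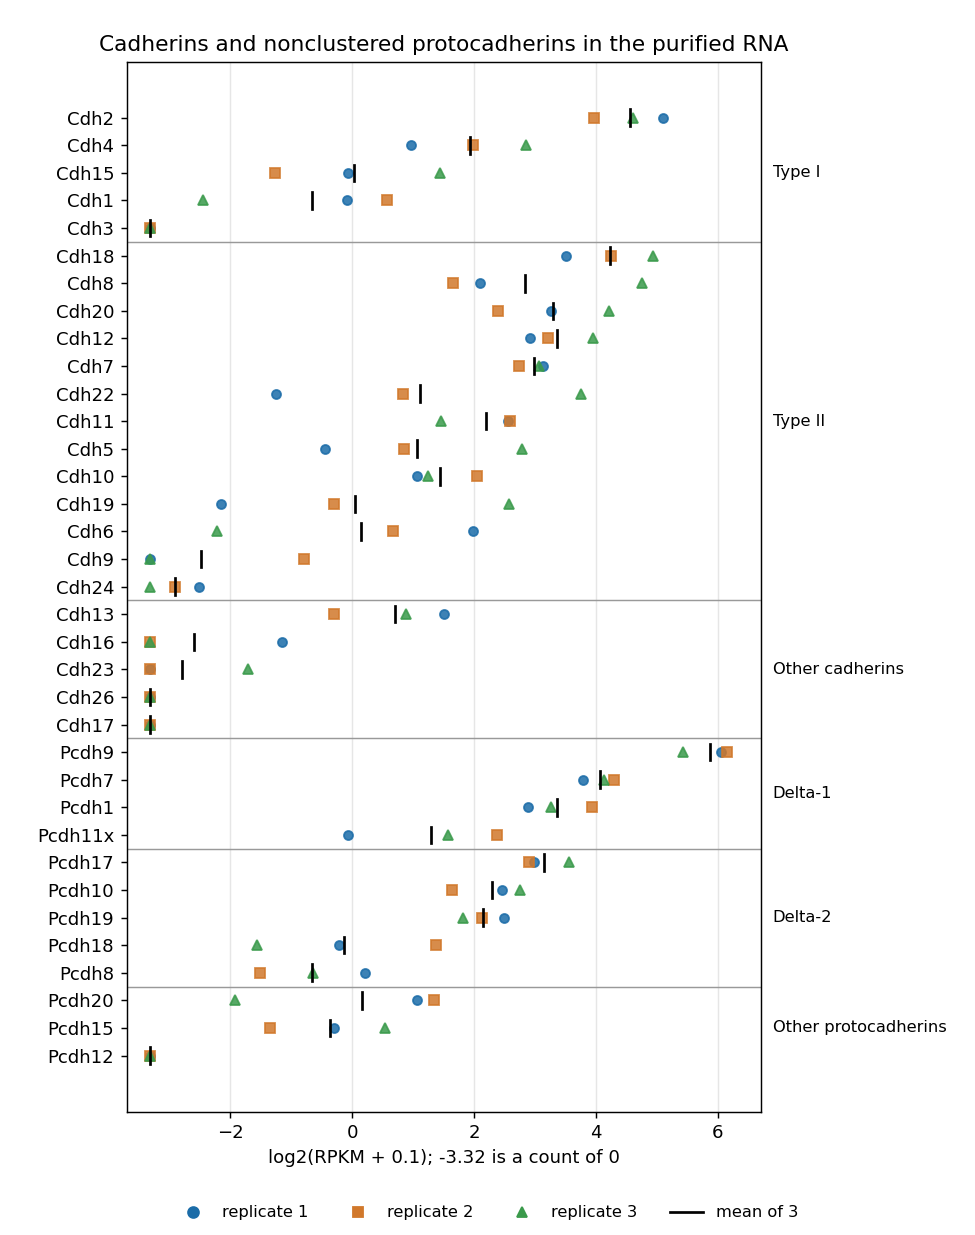
Level of each of the 35 members as log2(RPKM + 0.1) on the horizontal axis, 1 row per gene grouped by type, with 1 point per library and a bar at the mean of 3. Pcdh9 is farthest right in all 3 libraries, and the points of Cdh7 lie close together (highest over lowest 1.31) while those of Cdh19 lie far apart (47.5).

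Among the delta-1 protocadherins, Pcdh9 had the highest level of all members. It lies on the minus strand of chromosome 14 (ENSMUSG00000055421.8, chr14:93013410-93890679 in mm10) and encodes an adhesion molecule of neurons. Its counts were 3395, 4232 and 2276 in replicates 1, 2 and 3, or 66.3, 70.8 and 43.1 RPKM (60.0 ± 14.9; SD, n = 3). It was first of the 35 by RPKM and by CPM in each library, and stood at places 382, 350 and 645 among all genes by CPM. Pcdh9 took 27.3%, 28.9% and 14.9% of the summed CPM of the members. Replicate 3 was the lowest for this gene, yet above every other member there.

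Pcdh7, whose protein is known to bind protein phosphatase 1 through its tail, had 1102, 1825 and 1441 counts, or 13.8, 19.5 and 17.4 RPKM. Its CV between libraries, 17.3%, was the second lowest of the members tested after that of Cdh7. The antisense gene 4932441J04Rik shares 21.1% of the annotated exon bases of Pcdh7, and had 0 counts in all 3 libraries. Reads over the shared bases may have been left out as ambiguous for both genes, so this 0 does not show that Pcdh7 lost none. Pcdh1, known as a surface receptor of airway epithelium, was at 7.30, 15.3 and 9.51 RPKM, with replicate 2 the highest. The X-linked Pcdh11x had 90, 624 and 313 counts, or 0.854, 5.08 and 2.88 RPKM, a 5.94-fold range in CPM with replicate 1 the lowest.

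The delta-2 protocadherins were led by Pcdh17, a regulator of presynaptic assembly, at 7.81, 7.37 and 11.7 RPKM (8.97 ± 2.40; SD, n = 3). Pcdh10, known for axon growth and for the removal of excitatory synapses, was at 5.37, 3.03 and 6.67 RPKM. Pcdh19, the X-linked gene of an epilepsy that mainly affects females, whose protein pairs with N-cadherin, was at 5.53, 4.28 and 3.43 RPKM. These 3 genes kept within a 2.20-fold range in CPM between libraries. The other two were far lower. Pcdh18, which binds the signalling adaptor Dab1, had 31, 118 and 10 counts, and Pcdh8, an activity-induced gene whose protein draws N-cadherin from the surface, had 36, 10 and 19 counts.

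The median of the delta-1 genes exceeded that of the delta-2 genes within each library, though the groups overlapped. By mean RPKM, Pcdh11x (2.94) lay below Pcdh17 (8.97), Pcdh10 (5.02) and Pcdh19 (4.42), and above Pcdh18 (1.17) and Pcdh8 (0.613). The median level was 10.5, 17.4 and 13.5 RPKM for the 4 delta-1 genes and 5.37, 3.03 and 3.43 RPKM for the 5 delta-2 genes. On the log2(RPKM + 0.1) scale the medians differed by 1.75 ± 0.80 (SD, n = 3), with delta-1 higher in 3 of 3 libraries. Between single genes, Pcdh9 exceeded Pcdh10 by 3.59 ± 0.92 log2 units, also in 3 of 3 libraries. With 3 libraries, 0.25 is the smallest p of the exact permutation test by sign flips (two-sided), and both differences reached it. The difference of Pcdh9 minus Pcdh10 was 2.50 when the length of the longest coding transcript was used in place of all exons, since 15888 bases are annotated as exons of Pcdh10 and 7081 of them lie in that transcript.

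Of the 3 protocadherins outside the delta groups, Pcdh15 was at 0.713, 0.291 and 1.35 RPKM (128, 61 and 250 counts) and Pcdh20 at 2.0, 2.44 and 0.164 RPKM (83, 118 and 7 counts). Pcdh12 had no count. Pcdh15 forms the tip links of inner ear hair cells together with Cdh23. Cdh23 had 0, 0 and 27 counts, and the difference of Cdh23 minus Pcdh15 was -2.41 ± 0.55 log2 units, lower in 3 of 3 libraries. The size of that difference is set by the pseudocount, since Cdh23 was at 0 in 2 libraries (-0.70 with a pseudocount of 1 and -4.58 with 0.01). Of 8 further genes of the hair cell transduction complex, Ush1c, Ush1g, Tmc1 and Tmc2 had no count in any library. Myo7a had 4, 338 and 115 counts and Tmie 0, 22 and 200.

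N-cadherin (Cdh2), the type I cadherin of neurons and glia, was the highest of the cadherins by mean RPKM. Its gene lies on the minus strand of chromosome 18 (ENSMUSG00000024304.14, chr18:16588877-16809246). It had 2076, 1107 and 1532 counts, or 34.1, 15.6 and 24.4 RPKM (24.7 ± 9.25; SD, n = 3), with replicate 1 the highest. R-cadherin (Cdh4), which pairs with N-cadherin, was at 1.86, 3.83 and 7.14 RPKM, with replicate 3 the highest. E-cadherin (Cdh1), the cadherin of epithelia, had 29, 56 and 3 counts, or 0.839, 1.39 and 0.0842 RPKM. Cdh2 exceeded Cdh4 by 2.63 ± 1.30 log2 units and Cdh1 by 5.21 ± 1.83, both with p = 0.25 by the exact permutation test and 1 sign in all 3 libraries. The size of Cdh2 minus Cdh1 depended on the pseudocount (3.87 with 1 and 5.61 with 0.01). In replicate 3, where Cdh1 had 3 counts, that difference was 7.05. M-cadherin (Cdh15), known from muscle and from cerebellar granule cells, had 21, 9 and 66 counts. The granule cell markers summed to 3158, 3643 and 3688 CPM in the same libraries.

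The type II cadherins were the largest group, and 11 of its 13 genes were detected in every library, against 47.4% of protein-coding genes. Cdh18, a cadherin of the brain, led them at 11.3, 19.0 and 30.6 RPKM (389, 762 and 1085 counts), with replicate 3 the highest. Cdh12, its neighbour in the genome, was at 7.45, 9.13 and 15.4 RPKM, and Cdh20 at 9.47, 5.18 and 18.5 RPKM. Cdh7 was the steadiest of all members tested. It had 656, 584 and 647 counts, or 8.65, 6.60 and 8.27 RPKM, and a CV of 13.9%. Cdh11, known from mesenchyme and brain, was at 5.75, 5.91 and 2.65 RPKM with replicate 3 the lowest, and Cdh10 at 1.99, 4.02 and 2.26 RPKM.

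Cdh8, a type II cadherin of neurons, had 245, 208 and 1617 counts, or 4.19, 3.05 and 26.8 RPKM. It was thus the third highest member in replicate 3 and at places 13 and 15 in replicates 1 and 2. Cdh22 (9, 55 and 385 counts), Cdh19 (4, 27 and 196 counts) and Cdh5 (20, 63 and 223 counts) were also highest in replicate 3. Cdh6, known from developing kidney and from neurons, went the other way with 262, 119 and 8 counts. Cdh9 (0, 15 and 0 counts) and Cdh24 (2, 1 and 0 counts) had fewer than 3 counts in at least 2 libraries.

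Markers of 2 other cell types are set beside these genes. Cdh5 is the cadherin of endothelial junctions, and the endothelial and mural markers summed to 51.0, 104 and 78.2 CPM, highest in replicate 2. Among them, Kdr had 3, 5 and 69 counts, Pecam1 133, 26 and 51, and Pdgfrb 2, 2 and 34. Flt1 (6.22, 43.0 and 47.1 CPM) was highest in replicate 3, as Kdr and Pdgfrb were. Rgs5 (20.8, 46.8 and 3.34 CPM) and Tek (5.69, 10.3 and 7.96 CPM) were highest in replicate 2, and Pecam1 in replicate 1. Cdh19 is known from precursors of Schwann cells. The markers of oligodendrocyte precursors summed to 156, 102 and 283 CPM, highest in replicate 3, as Cdh19 was. That peak was shared by the sums for granule cells (3688 CPM), inhibitory interneurons (1133 CPM), astrocytes (2267 CPM) and leptomeninges (55.8 CPM). The remaining marker lists were highest in replicate 1 or 2, and that of oligodendrocytes was lowest in replicate 3 (2890 CPM). Among the 5 genes of oligodendrocyte precursors, Vcan (807, 535 and 1524 counts), Pdgfra (223, 123 and 545 counts) and Sox10 (32, 79 and 98 counts) were highest in replicate 3. Cspg4 (16, 117 and 3 counts) and Olig2 (97, 49 and 33 counts) were lowest there. Their part in the levels of Cdh5 and Cdh19 was not tested.

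By their median, type II genes stood above type I genes. The median of the 13 type II genes was 3.84, 3.05 and 6.81 RPKM and that of the 5 type I genes 0.855, 1.39 and 2.61 RPKM in replicates 1, 2 and 3. The type I median was that of Cdh15 in replicates 1 and 3 (21 and 66 counts) and of Cdh1 in replicate 2 (56 counts). On the log2(RPKM + 0.1) scale the difference was 1.49 ± 0.50, higher in 3 of 3 libraries. It was 0.82 with means of the log values in place of medians. By mean RPKM, Cdh2 was above every type II gene. In replicates 2 and 3, however, Cdh18 exceeded Cdh2, as did Cdh8 in replicate 3. Summed over the 13 genes, type II cadherins took 366, 380 and 751 CPM. The 5 type I genes took 295, 161 and 257 CPM, of which Cdh2 held 275, 126 and 197 CPM.

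Of the 5 cadherins outside type I and type II, 1 was detected in every library, against 47.4% of protein-coding genes. This was Cdh13, which is held in the membrane by a lipid anchor and has no cytoplasmic tail. It had 232, 71 and 152 counts, or 2.73, 0.717 and 1.74 RPKM. By mean RPKM, Cdh13 (1.73) lay below Cdh4 (4.28) but above Cdh15 (1.26) and Cdh1 (0.771). It was at place 21 of the members over all exons and 14 over its longest coding transcript. Cdh13 minus Cdh2 was -3.86 ± 0.35 log2 units, negative in all 3 libraries. The kidney cadherin gene Cdh16 had 10, 0 and 0 counts. Over all members, the median of the 12 protocadherins exceeded that of the 23 cadherins by 1.10 ± 0.79 log2 units, higher in 3 of 3 libraries but by 0.26 in replicate 3. It was higher in 2 of 3 libraries when the length of the longest coding transcript was used (1.08 ± 1.18) or members with fewer than 10 counts in all were left out (0.64 ± 1.21), each with an exact permutation p of 0.5.

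**Figure D2:**
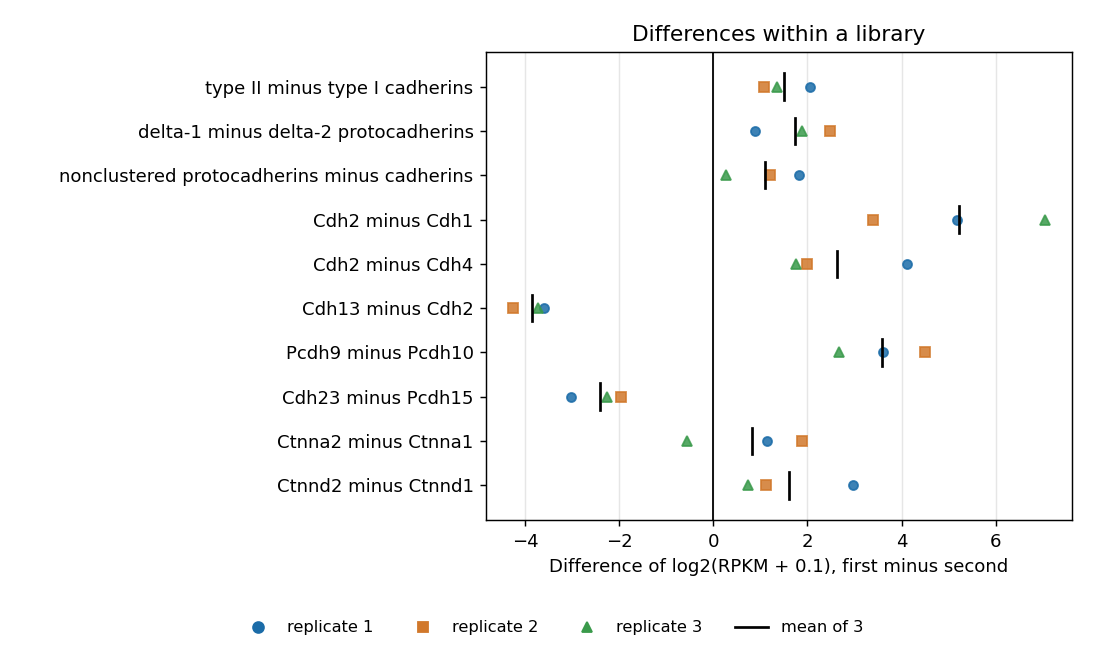
Differences within a library on the log2(RPKM + 0.1) scale, first named minus second named, with 1 point per library and a bar at the mean of 3. The points of 9 of the 10 differences lie on 1 side of 0, and those of Ctnna2 minus Ctnna1 lie on both.

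Most neighbours in the order of the members were not separated by these 3 libraries. The order came from the same libraries and neighbours are the closest genes in it, so genes farther apart are not covered here. With the 31 members that had counts ordered by mean RPKM, 2 of the 30 pairs of neighbours differed in 1 direction in all libraries by more than the SD of the difference. These were Pcdh9 over Cdh2, by 1.32 ± 0.75 log2 units, and Cdh4 over Cdh5, by 0.87 ± 0.71. From Cdh2 down to Cdh4, in places 2 to 15, no neighbours were separated. Length scaling moved single genes, as Cdh10 was at place 18 by mean RPKM over all exons and 12 over its longest coding transcript. Of the 10 highest members by RPKM, 9 were also among the 10 highest by CPM.

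The counts of the members differed between libraries beyond counting error, as those of most genes did. Of the 35, 27 passed the filter of 10 counts in 2 libraries, and all 27 varied in a Poisson chi-square test adjusted over 11168 genes after Benjamini and Hochberg, against a background of 96.5%. The share is close to the background. The highest library exceeded the lowest at least 4-fold in 12 of these 27, where 42.6% of the genes tested did so. The median ratio was 3.81 for the 27 members and 3.22 for all genes tested. None of them had 0 counts in 1 library and 50 or more in another, which 4.35% of the genes tested had.

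The ratios were largest in genes of low or middle level. They reached 47.5 for Cdh19, 41.5 for Cdh22, 33.8 for Cdh6, 16.5 for Cdh1 and 14.9 for Pcdh20, and were 1.31 for Cdh7, 1.42 for Pcdh7, 1.59 for Pcdh17 and 1.64 for Pcdh9. Of the 27 members, 6 were highest in replicate 1, 9 in replicate 2 and 12 in replicate 3, while 35.2%, 32.6% and 32.2% of the genes tested were.

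**Figure D3:**
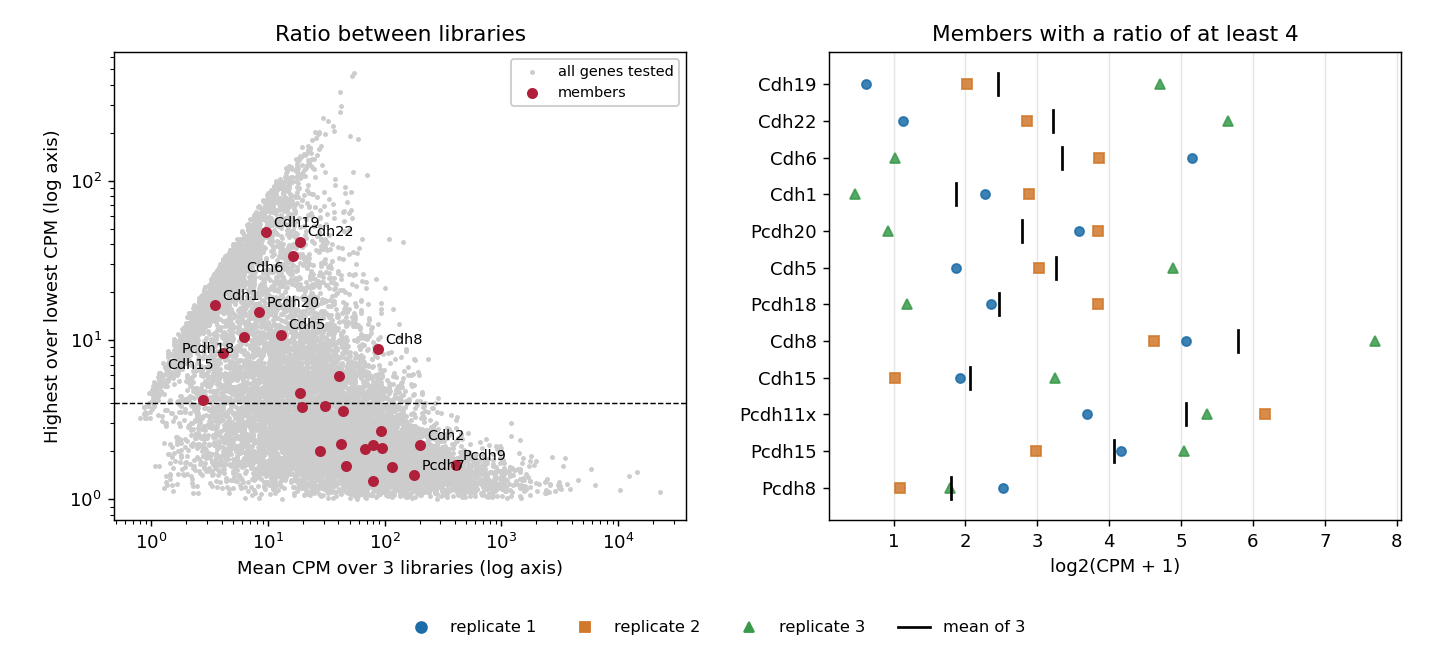
Left, highest over lowest CPM between the 3 libraries (log axis) against mean CPM (log axis) for all 11168 genes tested in grey and the 27 members among them in red, with a dashed line at 4. Right, log2(CPM + 1) in each library for the 12 members above the line, from Cdh19 with a ratio of 47.5 at the top to Pcdh8 with 4.20 at the bottom.

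Many members lie next to each other in the genome. On chromosome 15, the type II genes Cdh6, Cdh9, Cdh10, Cdh12 and Cdh18 follow each other over 10.4 Mb with no other protein-coding gene of the files between them. Their levels were unlike, with 0, 15 and 0 counts for Cdh9 beside 151, 356 and 177 counts for Cdh10 and 262, 119 and 8 counts for Cdh6. Cdh18 and Cdh12 were highest in replicate 3, in which Cdh6 was lowest. On chromosome 8, Cdh3, with no count, ends 46.1 kb before the start of Cdh1, and Cdh8, Cdh11 and Cdh5 form another run with no protein-coding gene of the files between them. Cdh7 and Cdh19 are neighbours on chromosome 1, and the steadiest member thus lies beside the most variable one. Gene spans ran from 4.54 kb for Pcdh8 to 1550 kb for Pcdh15, and that of Pcdh9 was 877 kb.

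Catenins, the partners of the classical cadherin tail, were detected in all libraries, 11 of 11 genes with their adaptors, against 47.4% of protein-coding genes. The highest was Ctnnd2 (delta-catenin), a relative of p120-catenin found in neurons, at 141, 67.3 and 78.9 RPKM. Pkp4, another relative, was at 91.5 ± 9.08 RPKM (SD, n = 3), Tjp1, a scaffold of tight junctions, at 68.8 ± 15.3 RPKM, and beta-catenin (Ctnnb1) at 38.8 ± 14.4 RPKM. Ctnnd2 exceeded p120-catenin (Ctnnd1) by 1.60 ± 1.19 log2 units, with 1 sign in all libraries. Leaving out replicate 1 gave 0.92. The alpha-catenins that link to actin were lower. Neural alpha-catenin (Ctnna2) was at 7.14 ± 1.61 RPKM and Ctnna1 at 4.57 ± 3.07 RPKM, and their difference of 0.82 ± 1.26 log2 units was within its SD, with Ctnna2 above Ctnna1 in 2 libraries and an exact permutation p of 0.5. All 11 genes varied between libraries beyond counting error, against 96.5% of all genes tested.

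Genes that process cadherins and those that act on protocadherin tails were also measured. The sheddase gene Adam10, whose product cuts N-cadherin, was at 10.6 ± 6.67 RPKM, while Furin, which can remove propeptides, was at 1.08 ± 0.64 RPKM. Of the WAVE complex, Cyfip2 (248 ± 32.4 RPKM) and Nckap1 (180 ± 21.2 RPKM) were above every cadherin and protocadherin. Wasf1 was at 35.5 ± 20.1 RPKM and Abi1 at 16.3 ± 11.2 RPKM. Ppp1ca, the gene of a catalytic subunit of protein phosphatase 1, had 15, 5 and 64 counts, and the small subunit gene Brk1 had 16, 20 and 31. Of these 8 genes, 7 varied between libraries beyond counting error, against 96.5% of all genes tested. Brk1 did not pass the test.

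The highest of the other cadherin superfamily genes lay between Pcdh9 and Cdh2 by mean RPKM. Clstn1, a calsyntenin of synapses, was at 52.8 ± 20.8 RPKM, the giant cadherin genes Fat2 at 51.4 ± 4.20 RPKM and Fat1 at 39.3 ± 3.16 RPKM, and a second calsyntenin gene, Clstn2, at 33.9 ± 13.3 RPKM. Of 15 genes, 10 were detected in every library, against 47.4% of protein-coding genes. All 12 that passed the filter on counts varied beyond counting error, against 96.5% of all genes tested. The desmosomal gene Dsc2 and the photoreceptor cadherin gene Cdhr1 had no count.

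**Figure D4:**
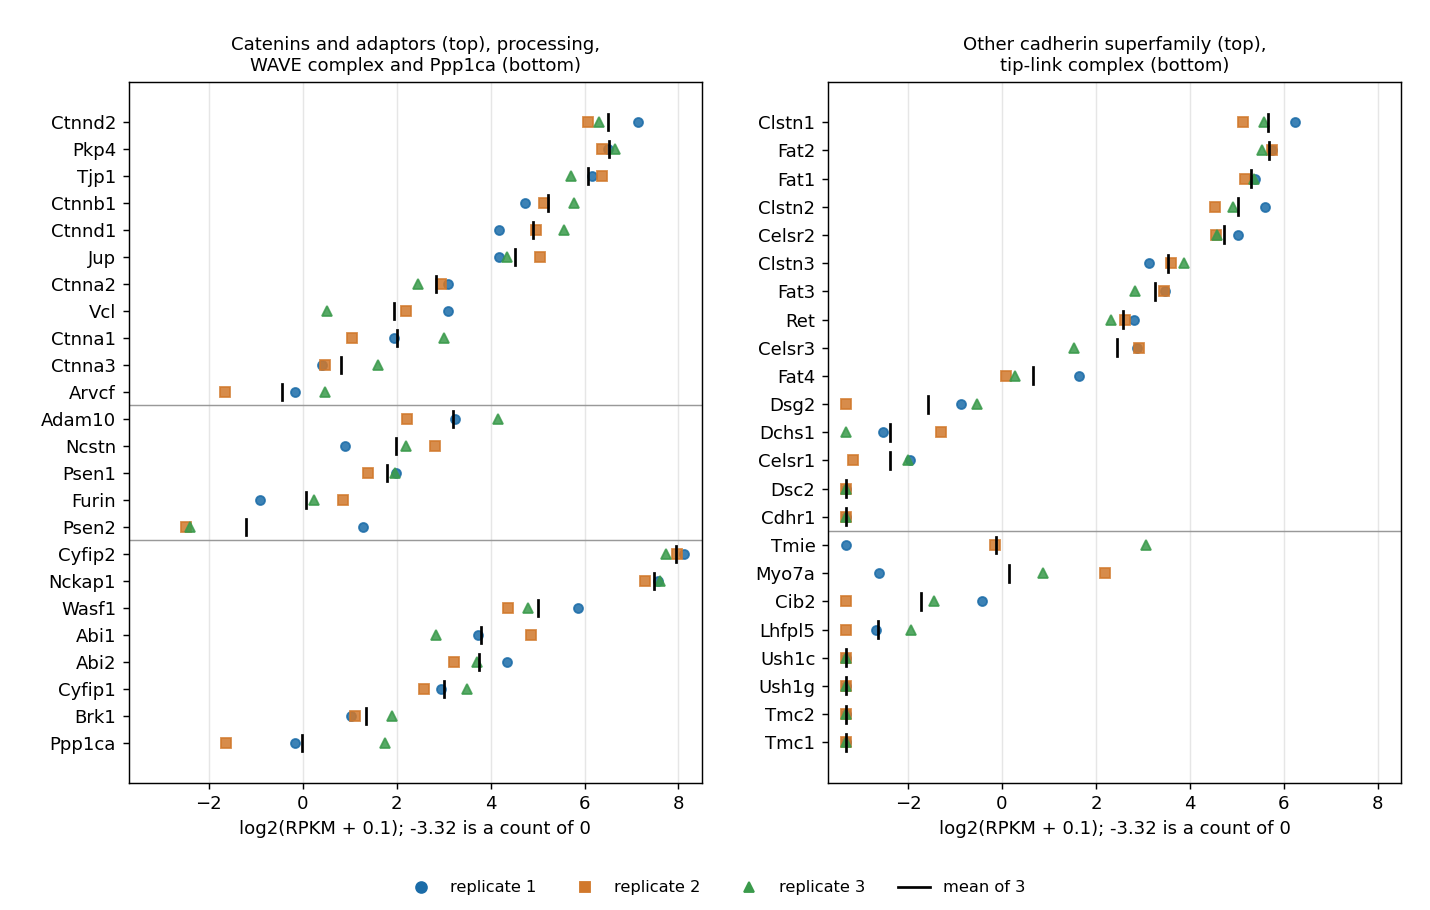
Level as log2(RPKM + 0.1) of catenins and adaptors, processing genes and the WAVE complex with Ppp1ca (left), and of other cadherin superfamily genes and the tip-link complex (right), with 1 point per library and a bar at the mean of 3. Cyfip2 and Nckap1 are farthest right, at 248 and 180 RPKM on average, and 4 of the 8 tip-link genes are at 0 in all libraries.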

How the data were processed

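The authors deposited raw read counts for each gene, 1 table per library, made with STAR 2.0.0e and HTSeq on the build mm10, per the submitters' processing notes. Neither the gene annotation nor the strand setting nor the kit is stated in the labels. Reads of a gene and of an overlapping antisense gene therefore cannot be told apart, and some may have been left out as ambiguous. HTSeq's summary rows and a row named unknown with 0 counts were left out. Reads with several alignments were not counted to genes. CPM used TMM library sizes (edgeR 4.0.16, R 4.3.3), and RPKM divided CPM by the union of exons in GENCODE M21 of the same build, matched by symbol for 23118 genes and all 35 members. Log values are log2(RPKM + 0.1), which understates differences of low genes. Differences within a library, 3 between list medians and 7 between genes, are given as mean ± SD with an exact permutation test by sign flips, two-sided. No adjusted values are given, since none of these tests can pass 0.05. Variation between libraries was tested by a Poisson chi-square test (scipy 1.17.1) over all genes with at least 10 counts in 2 libraries. Benjamini-Hochberg adjusted p under 0.05 was called varied. The test was tried on simulated counts with counting error and set changes only, which lack the further spread of these libraries. The filter passes a gene through its highest libraries. All members may be named, with each library's value for those of at least 10 CPM on average or in a fixed pair, and otherwise as counts or ranges. Of each partner list up to 4 of the highest and 2 of the lowest genes were named. A few marker genes were named after their values were seen. The members and lists were chosen with earlier results of these data known. Dchs2, 1 listed gene, was not analysed here. Alternatives were DESeq2 1.42.0 size factors, unscaled totals, other pseudocounts and lengths, count filters, list means and leaving out each library.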

Additional observations from a re-analysis of the deposited data

How the results depend on the processing

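No paired analysis was possible because the 3 libraries form 1 group and no other group shares their replicate numbers. Differences between genes and lists were taken within each library. The mean of all 10 differences kept its sign under all 96 alternatives computed for them. Among alternatives with all 3 libraries, single libraries turned sign only for protocadherins minus cadherins (with transcript length, and with members of at least 10 counts) and for Ctnna2 minus Ctnna1, which had 2 of 3 libraries on 1 side as reported too. Leaving out each library gave 1.22 to 1.70 log2 units for type II minus type I cadherins, 1.38 to 2.18 for delta-1 minus delta-2 protocadherins and 0.74 to 1.52 for protocadherins minus cadherins. It gave 4.29 to 6.12 for Cdh2 minus Cdh1, 1.88 to 3.06 for Cdh2 minus Cdh4, 3.14 to 4.05 for Pcdh9 minus Pcdh10, 0.29 to 1.52 for Ctnna2 minus Ctnna1 and 0.92 to 2.04 for Ctnnd2 minus Ctnnd1. With members of at least 10 counts only, the protocadherins minus cadherins difference was 0.64 and type II minus type I was 0.98. Without length scaling these differences were 2.0 each. The members detected in every library were 21 at a minimum of 10 counts and 27 at 1 count, and 20 to 22 members reached 10 CPM without 1 library. Between 20 and 22 members varied with 1 library left out, of 22 to 24 tested, against a background of 80.5% to 82.2%. At 7622010 counts or more per library, genes such as Cdh24 and Cdh23 rest on counts too few to order them.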
